A study of Homo sapiens with 21 samples.

Results

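The NRF2 antioxidant response was followed through 9 genes in HepG2 cells exposed to caffeine: NFE2L2, KEAP1, GCLC, GCLM, TXNRD1, SRXN1, NQO1, HMOX1 and OSGIN1. The genes were given by name and matched by symbol to the Ensembl identifiers of the count table. All 9 were found, each as 1 feature among 37637 in the table, and all 9 passed the filter on low counts that left 17951 features for testing.

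HepG2 is a human hepatocellular carcinoma line, so each value describes cultured tumour cells of 1 line and not liver tissue. Cells were held for 24 h in serum-free DMEM that contained caffeine at 0 (control), 0.01, 0.1, 1, 10, 100 or 1000 µM. The control cultures shared the serum-free medium and the exposure time and received no caffeine. Each of the 7 groups had 3 cultures, which the labels call biological replicates, giving 21 polyadenylated RNA libraries. Dose groups were compared with the control and with each other. All comparisons with control share the same 3 control libraries. Levels are relative to the library total and measure neither cell number nor RNA per cell. In such bulk RNA a change in the share of cells that express a gene cannot be told apart from a change within each cell.

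NRF2, the product of NFE2L2, is a transcription factor whose amount is set mainly by protein turnover. KEAP1 holds it for ubiquitination by a CUL3 ligase, and oxidants or electrophiles that modify KEAP1 let NRF2 accumulate, pair with small MAF proteins and bind antioxidant response elements. Its targets make and recycle glutathione and thioredoxin, reduce quinones and break down heme, and in hepatocytes they are known for handling reactive products of drug metabolism. NFE2L2 and KEAP1 transcript levels therefore give no measure of NRF2 protein, which was not assayed.

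Sequences are shown first for the promoter windows that held the core of the antioxidant response element. RefSeq windows on GRCh38.p14, from 250 bases before to 50 bases after an annotated start, were matched by symbol for 8 of 9 members (all but HMOX1), giving 11 windows. The core was searched as TGACNNNGC on both strands, so that a match on the other strand reads GCNNNGTCA. It was found in 4 windows of 3 members (GCLM, KEAP1 and TXNRD1), against 13.3% of all 35116 windows and 16.1% of all 27305 genes in the table. GCLM and the first window of TXNRD1 are printed 5′ to 3′ up to the base before the start, with the core in capitals, and GCLC is given beside GCLM as the partner subunit without a match.
GCLM, chr1:93909431-93909680, minus strand: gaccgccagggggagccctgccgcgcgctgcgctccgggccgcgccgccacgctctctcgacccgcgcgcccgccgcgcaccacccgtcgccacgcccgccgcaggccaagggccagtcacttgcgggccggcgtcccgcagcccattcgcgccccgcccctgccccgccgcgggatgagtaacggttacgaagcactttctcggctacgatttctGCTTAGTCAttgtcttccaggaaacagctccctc
TXNRD1 window 1, chr12:104215529-104215778, plus strand: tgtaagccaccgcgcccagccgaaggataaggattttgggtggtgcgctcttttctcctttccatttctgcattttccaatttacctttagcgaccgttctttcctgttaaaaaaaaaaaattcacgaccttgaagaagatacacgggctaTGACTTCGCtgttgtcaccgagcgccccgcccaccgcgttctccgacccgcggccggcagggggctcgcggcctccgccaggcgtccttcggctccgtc
GCLC, chr6:53545102-53545351, minus strand: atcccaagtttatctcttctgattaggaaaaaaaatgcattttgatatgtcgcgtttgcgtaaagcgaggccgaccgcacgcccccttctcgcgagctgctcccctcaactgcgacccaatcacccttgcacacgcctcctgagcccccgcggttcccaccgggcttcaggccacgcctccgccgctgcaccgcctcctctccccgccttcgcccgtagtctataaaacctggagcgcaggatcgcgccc
The remaining matches are shown with 10 bases on either side. A second match in window 1 of TXNRD1 began 8 bases before the start and ran past it, and the match in window 2 lay 102 bases before the second start, within an exon of other TXNRD1 transcripts in GENCODE 29. The matches of KEAP1 lay 54 and 31 bases before its second start, within the 5′ UTR of another KEAP1 transcript.
TXNRD1 window 1, chr12:104215761-104215789: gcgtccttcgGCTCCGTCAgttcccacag
TXNRD1 window 2, chr12:104286920-104286948: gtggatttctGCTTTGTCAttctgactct
KEAP1 window 2, chr19:10502807-10502835: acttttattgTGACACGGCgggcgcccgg
KEAP1 window 2, chr19:10502784-10502812: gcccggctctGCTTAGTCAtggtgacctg
The GCLM match, 34 bases before the start, and the nearer KEAP1 match have the same 9 letters. These are matches of letters, and no binding was measured. Sequence outside the windows was not searched, so a member without a match here may hold the element elsewhere.

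Total counts per library ran from 23502519 to 44815552. The labels name no batches, but the 13 mitochondrial mRNAs divided the libraries into 3 sets. The share of counts from all genes of the mitochondrial genome, not only these mRNAs, was lowest in set B, at 4.715 to 4.945%. It was 9.95 to 14.2% for the libraries of A and 11.8 to 12.8% for those of C. Set A comprised 11 libraries: the 3 of control, of 0.01 µM and of 0.1 µM, plus 1 µM replicates 1 and 2. Set B comprised 7: the third 1 µM replicate, the 3 of 10 µM, 100 µM replicate 2, plus 1000 µM replicates 1 and 2. Set C comprised the other 3, which were 100 µM replicates 1 and 3 with the third of 1000 µM. Every control was in set A and every library from 10 µM upward was in set B or C, so dose and set are linked within a group only at 1 µM (A and B), 100 µM and 1000 µM (B and C). Changes against control are therefore given with and without the set as a term. The step from set A to sets B and C in that term rests on 1 library, the third 1 µM replicate. Sets are also compared below at single doses and over the step from 100 to 1000 µM. Their part in any change was not otherwise tested. All 8 hepatocyte markers (ALB, APOB, HNF4A and others) were present. Their summed level was 30612 to 38768 CPM (a TMM-scaled count relative to the library total) in control and 25901 to 27100 CPM at 1000 µM, below every control, and its part in the members' changes was not tested. The 3 leukocyte markers and the 2 endothelial markers matched stayed under 1 CPM in every library, and CD3E had no count. Of 3 fibroblast markers, COL1A1 and COL3A1 had at most 2 counts in any library, whereas PDGFRB rose at 1000 µM by 2.50 on the log2 scale. Their summed level was 3.18 to 3.85 CPM in control and 18.2 to 23.5 CPM at 1000 µM, and its part in those changes was not tested either.

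In control cells the members differed widely in level. Per kilobase of exon in GENCODE 29, NQO1 had 143 ± 5.96 CPM (SD, n = 3 here and below), SRXN1 75.2 ± 3.55, NFE2L2 60.4 ± 6.56 and HMOX1 38.3 ± 5.29. TXNRD1 followed at 35.0 ± 1.27 CPM per kilobase, KEAP1 at 14.9 ± 2.80, GCLC at 14.6 ± 1.41, OSGIN1 at 12.7 ± 2.79 and GCLM at 5.59 ± 0.399. The control ranges of HMOX1 and TXNRD1 overlapped, as did those of KEAP1, GCLC and OSGIN1, so these neighbours were not separated beyond their spread. The catalytic subunit GCLC thus stood above its modifier GCLM per unit of exon length.

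**Figure D1:**
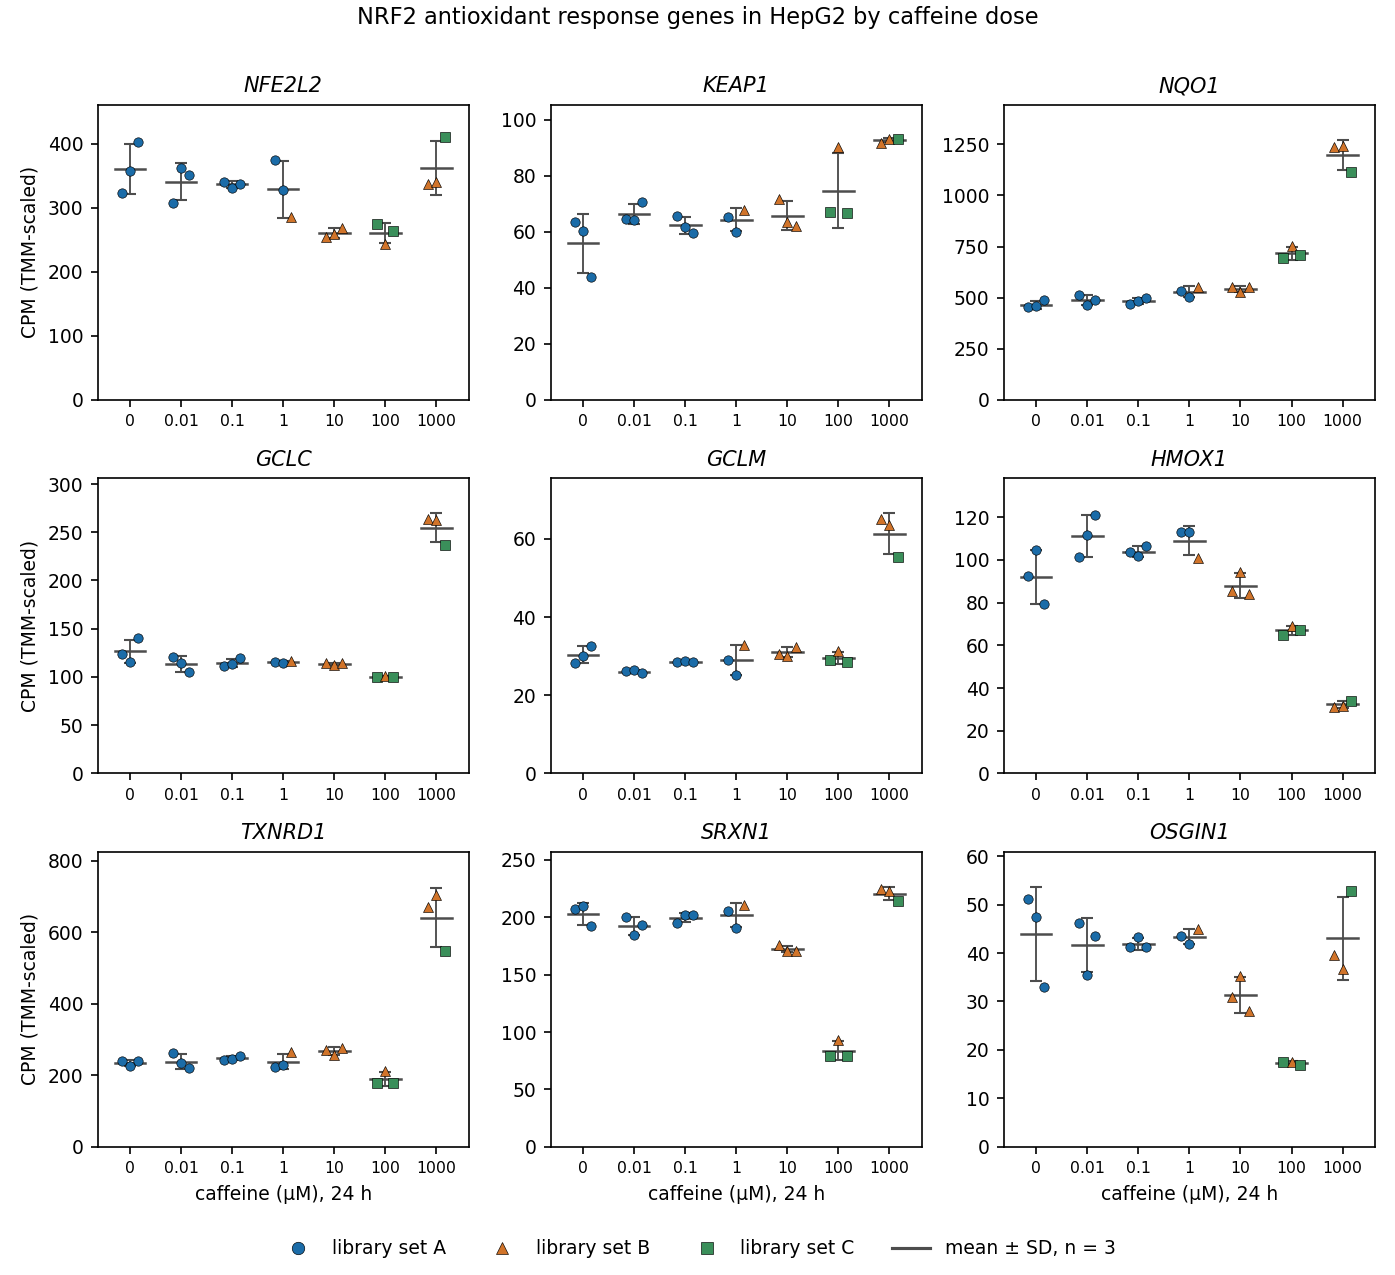
Level of each member (TMM-scaled CPM, linear axis from 0) in all 21 libraries by caffeine dose in µM, with points marked by library set and lines for the mean ± SD of 3 cultures. At 1000 µM NQO1, GCLC, GCLM and TXNRD1 lay above every control and HMOX1 below every control, while SRXN1 and OSGIN1 were lowest at 100 µM.

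At 1000 µM caffeine, 5 members rose and 1 fell. TXNRD1, NQO1, GCLM and GCLC increased 2.01- to 2.73-fold and KEAP1 1.65-fold, whereas HMOX1 was 2.85-fold lower. SRXN1, OSGIN1 and NFE2L2 did not pass the test. By edgeR's quasi-likelihood test, adjusted over all features, 6 of 9 members were called (adjusted p under 0.05), beside 57.6% of all features (28.5% higher and 29.1% lower). The members' median log2 fold change was 0.73, beside -0.01 for all features. Adding the library set to the model gave the same 6 calls in the same directions, where 38% of features were called. Without the set term the 6 were also called in each of 21 fits that left out 1 library.

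At 100 µM the members moved differently. NQO1 and KEAP1 were higher than in control and NFE2L2, GCLC, HMOX1, TXNRD1, SRXN1 and OSGIN1 lower, so that 8 of 9 were called by edgeR's quasi-likelihood test, beside 46.6% of all features (23.6% higher and 22.9% lower). Their median log2 fold change was -0.33, beside -0.01. With the set as a term 3 of 9 were called (NQO1 higher, SRXN1 and OSGIN1 lower), beside 17.3% of features. At 10 µM 4 of 9 were called (NQO1 higher, NFE2L2, SRXN1 and OSGIN1 lower), beside 14.8% of features (7.27% higher and 7.49% lower). With the set term none of 9 passed at 10 µM by edgeR, where 0.0279% of features did, and 2 (SRXN1 and OSGIN1) had an unadjusted p under 0.05, beside 4.94% of features. Leaving out 1 library left between 1 and 4 of the 10 µM calls. NFE2L2 was called in all 21 such fits. NQO1 was not called without control replicate 1 or 2 or without any 1 of the 10 µM libraries, and SRXN1 was not called in these fits or without 0.1 µM replicate 2 or 3. OSGIN1 lost its call without either of control replicates 1 and 2, without 0.1 µM replicate 2, and without 10 µM replicate 1 or 3.

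No member was called at 0.01, 0.1 or 1 µM by edgeR, by DESeq2 or by limma-voom, beside 0.0279%, 0% and 0.106% of all features by edgeR. At an unadjusted p under 0.05, edgeR found 3 members at 0.01 µM (GCLC, GCLM and HMOX1), 0 at 0.1 µM and 2 at 1 µM (NQO1 and HMOX1), beside 15%, 9.48% and 15.7% of all features. Group means of NQO1 ran from 466.0 CPM in control to 489, 483 and 529 CPM at these doses.

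**Figure D2:**
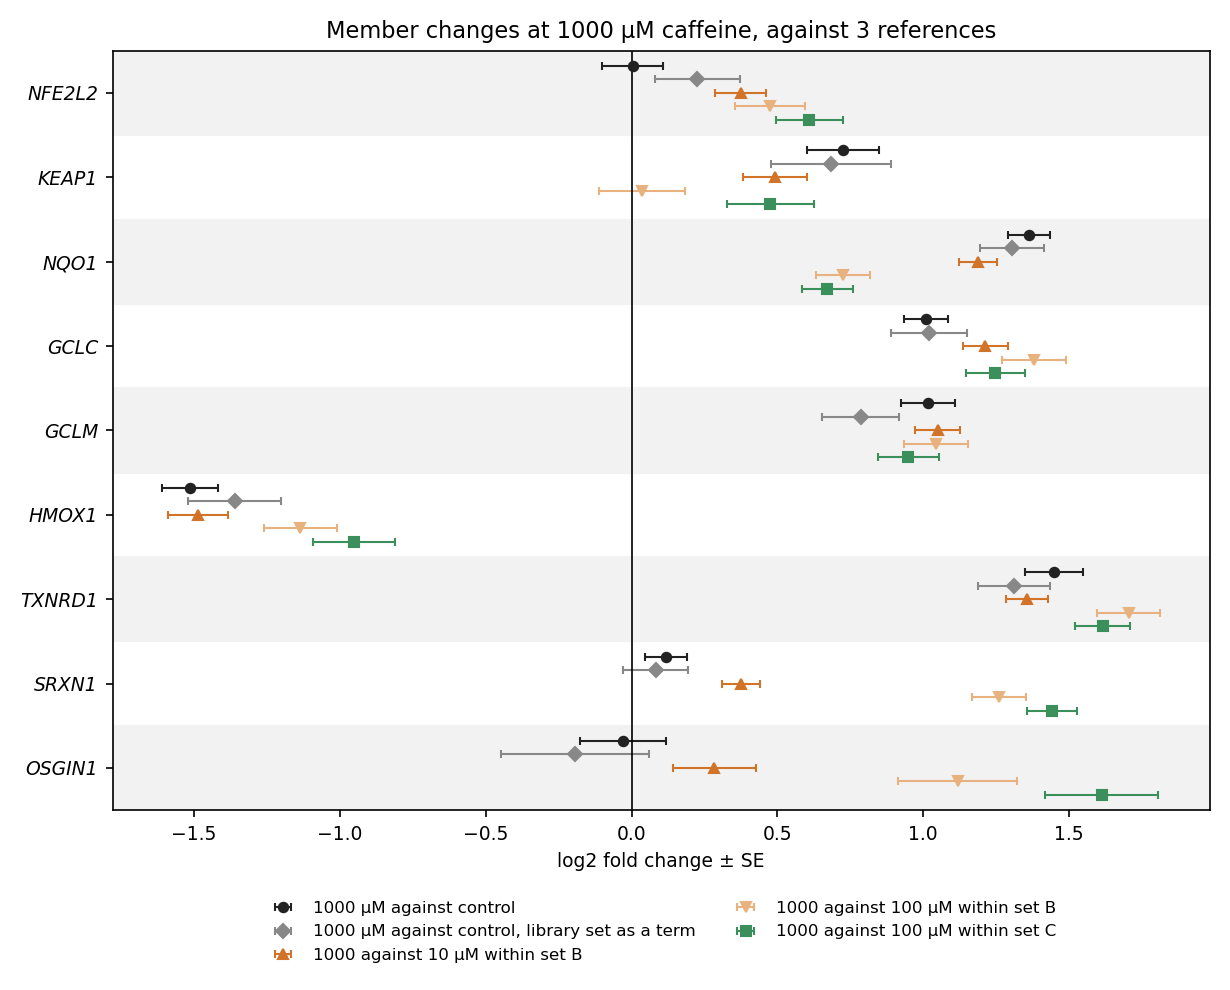
Log2 fold change ± SE of each member at 1000 µM against control (without and with the library set as a term), against 10 µM within set B, and against 100 µM within sets B and C. TXNRD1, GCLC, GCLM and NQO1 were to the right of 0 and HMOX1 to the left under all 5 comparisons, whereas SRXN1 and OSGIN1 had their largest values against 100 µM, and SRXN1 was also above 0 against 10 µM (0.37 ± 0.0647).

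NFE2L2, which encodes NRF2 itself, was below control at 10 and 100 µM and overlapped its control range at 1000 µM. It had 324, 357 and 402 CPM in control, 254, 259 and 268 CPM at 10 µM, 274, 243 and 264 CPM at 100 µM and 336, 339 and 410 CPM at 1000 µM. All 10 and 100 µM libraries were below every control, and the 1000 µM libraries overlapped the controls. The log2 fold change was -0.47 ± 0.104 at 10 µM (edgeR adjusted p = 0.00793), -0.47 ± 0.104 at 100 µM (0.00111) and 0.00 ± 0.104 at 1000 µM (0.976). Once the set was in the model the falls were -0.17 at 10 µM and -0.32 at 100 µM, and neither passed (adjusted p = 1 and 0.168). At 1 µM, the library of set B had 285 CPM, below the 374 and 327 CPM of the libraries of set A. In GENCODE 29, NFE2L2 shares 1054 exon bases, 17.6% of its exon length, with AC019080.1 on the same strand. That transcript had 0.886 ± 0.27 CPM in control and 3.81 ± 0.809 CPM at 1000 µM (SD, n = 3), and its part in the NFE2L2 count was not tested. NFE2L2 also shares 54 exon bases with AGPS on the opposite strand, and whether strand was used in counting is not given in the sources used here. AGPS had 158 ± 12.2 CPM in control and 398 ± 66.1 CPM at 1000 µM, and its part in the NFE2L2 count was not tested.

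KEAP1, the adaptor that presents NRF2 for degradation, rose at the top dose. It had 63.6, 60.3 and 43.9 CPM in control, 67.2, 90.2 and 66.6 CPM at 100 µM and 91.8, 93.0 and 93.0 CPM at 1000 µM. The 1000 µM libraries lay close together above all controls, and at 100 µM replicate 2, the 1 library of set B, stood apart from the other two. The log2 fold change at 1000 µM was 0.73 ± 0.123 (edgeR adjusted p = 5.1e-05), and 0.68 with the set term (0.0134). At 100 µM it was 0.42 (0.00934), but without replicate 2 at 100 µM it was 0.26 and missed the threshold (0.0852), as it did with the set term (0.43, adjusted p = 0.182) and when only the 2 groups were fitted.

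Glutamate-cysteine ligase makes the first and limiting step of glutathione synthesis, and both subunits rose at 1000 µM. GCLC, the catalytic subunit, had 124, 116 and 140 CPM in control, 99.7, 101 and 100.1 CPM at 100 µM and 264, 263 and 237 CPM at 1000 µM. GCLM, the modifier subunit, had 28.4, 29.9 and 32.6 CPM in control, 28.9, 31.2 and 28.4 CPM at 100 µM and 65.1, 63.5 and 55.3 CPM at 1000 µM. Every 1000 µM library exceeded every library of the other 6 groups for both genes. The rises were 2.01-fold for GCLC (log2 1.01 ± 0.0744, edgeR adjusted p = 1.1e-09) and 2.02-fold for GCLM (1.02 ± 0.093, 2.13e-08). The set term gave 1.02 for GCLC and 0.79 for GCLM on the log2 scale, both called.

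Below the top dose the subunits differed in what passed. GCLC fell by 0.33 on the log2 scale at 100 µM (edgeR adjusted p = 0.00112), and its change of -0.30 with the set term missed the threshold (0.145). GCLM at 100 µM had a log2 fold change of -0.04 (0.772). GCLC shares 529 exon bases, 6.12% of its exon length, with the transcript AL033397.1 on the same strand. That transcript went from 26.8 ± 2.55 CPM in control to 147 ± 26.5 CPM at 1000 µM, and its part in the GCLC count was not tested.

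TXNRD1, the cytosolic thioredoxin reductase, showed, with NQO1, the largest rises among the members at 1000 µM. It had 239, 225 and 240.3 CPM in control, 179, 211 and 179 CPM at 100 µM and 671, 704 and 548 CPM at 1000 µM. The 1000 µM libraries were far above the rest, and the 100 µM libraries were below every control. The rise was 2.73-fold (log2 1.45 ± 0.0996, edgeR adjusted p = 4.02e-10), or 1.31 on the log2 scale with the set term. Within 1000 µM the library of set C was below those of set B, with a log2 difference of -0.33 (0.0231), the only member to pass in that comparison, where 22.9% of features were called. That call was lost with no filter on low counts (adjusted p = 0.0555) and without replicate 2 at 1000 µM (0.105). The fall at 100 µM, -0.31 on the log2 scale (0.0147), missed the threshold with the set term (0.0639), without replicate 1 at 100 µM (0.0643) and without replicate 3 (0.0652).

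SRXN1 encodes sulfiredoxin, which reactivates over-oxidised peroxiredoxins, and it was lowest at 100 µM. It had 207, 210.1 and 192 CPM in control, 176, 171 and 171 CPM at 10 µM, 78.8, 93.4 and 78.9 CPM at 100 µM and 225, 222 and 214 CPM at 1000 µM. All 100 µM libraries were far below every control, and all 1000 µM libraries were slightly above every control. The log2 fold change was -1.28 ± 0.0738 at 100 µM (edgeR adjusted p = 1.68e-10), or 2.42-fold lower, and 0.12 ± 0.0724 at 1000 µM (0.167). In the fit with the set it was -1.27 at 100 µM (6.1e-07) and 0.08 at 1000 µM (0.599). At 10 µM the change was -0.23 (0.0356), and -0.32 with the set term (0.897). In GENCODE 29, AL121758.1 covers 85% of the SRXN1 exon bases on the same strand, but it had at most 96 counts in any library. Overlapping transcripts of NQO1 (AC092115.2, opposite strand, 17.7% of the exon bases) and OSGIN1 (AC009119.2, same strand, 13.9%) had at most 3 and 7 counts.

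OSGIN1, an oxidative stress-induced growth inhibitor, was also lowest at 100 µM. It had 51.2, 47.5 and 32.9 CPM in control, 30.8, 35.3 and 28.0 CPM at 10 µM, 17.6, 17.6 and 17.0 CPM at 100 µM and 39.6, 36.8 and 52.9 CPM at 1000 µM. The 100 µM libraries lay close together and below every library of the other groups, whereas the 1000 µM libraries overlapped the control range. The log2 fold change was -1.34 ± 0.151 at 100 µM (edgeR adjusted p = 9.22e-07), or 2.52-fold lower, and -0.03 ± 0.147 at 1000 µM (0.876). In the fit with the set it was -1.56 at 100 µM (0.000442) and -0.20 at 1000 µM (0.585). The 10 µM change was -0.49 (0.0336), and -0.56 with the set term (0.987).

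NQO1, a quinone reductase that is also a target of the aryl hydrocarbon receptor, was higher at each step from 10 to 1000 µM. It had 453, 457 and 488 CPM in control, 554, 528 and 551 CPM at 10 µM, 693, 750.3 and 707 CPM at 100 µM and 1238, 1242 and 1114 CPM at 1000 µM. These 4 groups did not overlap. The log2 fold change was 0.62 ± 0.0699 at 100 µM (edgeR adjusted p = 8.55e-07) and 1.36 ± 0.0708 at 1000 µM (1.0e-11), or 1.54- and 2.57-fold. The set term gave rises of 0.61 and 1.31, both called. At 10 µM it was 0.22 (0.0376), and 0.13 with the set term (adjusted p = 1).

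HMOX1, which splits heme into biliverdin, iron and carbon monoxide, was the 1 member that fell at 1000 µM. It had 92.6, 105 and 79.2 CPM in control, 64.9, 69.0 and 67.1 CPM at 100 µM and 31.1, 31.7 and 34.1 CPM at 1000 µM. The 100 µM libraries were below every control and the 1000 µM libraries below every 100 µM library. The fall at 1000 µM was 2.85-fold (log2 -1.51 ± 0.0947, edgeR adjusted p = 1.12e-10), and -1.36 with the set term (1.93e-06). At 100 µM it was -0.46 (0.000455), and -0.31 with the set term, which missed the threshold (0.218).

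The 1000 and 100 µM groups were compared directly. The fold changes take no control mean, but the p-values rest on a spread estimated over all 21 libraries, controls included. All 9 members were called by edgeR's quasi-likelihood test, 8 higher at 1000 µM and HMOX1 lower, beside 44% of all features (21.8% higher and 22.3% lower). The log2 fold changes were 1.76 for TXNRD1, 1.40 for SRXN1, 1.34 for GCLC, 1.31 for OSGIN1 and 1.05 for GCLM. NQO1 followed at 0.74, NFE2L2 at 0.48 and KEAP1 at 0.31, and HMOX1 stood at -1.05. KEAP1 was near the threshold (adjusted p = 0.0474), missed it with the set term (0.0803) and passed in 3 of the 21 fits with 1 library left out. With the set term 8 of 9 were called, beside 46.3%.

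Both doses are present in sets B and C, so the same difference was taken within each set. Within set B (2 libraries at 1000 µM, 1 at 100 µM) 8 of 9 members were called by edgeR, beside 43.2%, and KEAP1 had a log2 fold change of 0.04 (0.874). Within set C (1 library at 1000 µM, 2 at 100 µM) 9 of 9 were called, beside 26.4%, and KEAP1 had 0.48 (0.0225). The lone library of a dose is assumed to vary like the others. TXNRD1 rose by 1.70 in set B and 1.61 in set C, GCLC by 1.38 and 1.25, SRXN1 by 1.26 and 1.44, and OSGIN1 by 1.12 and 1.61. HMOX1 changed by -1.14 and -0.95. For the difference between the sets, edgeR called 0 members, beside 0.0947% of features, and DESeq2 also called 0. KEAP1 alone had an unadjusted p under 0.05 there, beside 16.2% of features, with a difference (B minus C) of -0.44 ± 0.21 (adjusted p = 0.309).

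Set B also holds all 10 µM libraries and 2 of the 1000 µM libraries. Within it 8 of 9 members were called at 1000 against 10 µM, 7 higher and HMOX1 lower, beside 60.1% of features (29.7% higher and 30.4% lower). The log2 fold changes were 1.36 for TXNRD1, 1.21 for GCLC, 1.19 for NQO1, 1.05 for GCLM and 0.49 for KEAP1. HMOX1 changed by -1.49 (edgeR adjusted p = 3.29e-10). NFE2L2 (0.38, adjusted p = 0.00103) and SRXN1 (0.37, 5.33e-05), which did not pass at 1000 µM against control, were also higher here. In the reference group, 10 µM, both had been called lower than control without the set term. OSGIN1 did not pass (0.28, 0.0964).

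At 1 µM the library of set B was compared with the libraries of set A at the same dose. By edgeR 0 of 9 members were called, beside 8.18% of features, and DESeq2 and limma-voom also called 0. NFE2L2 (log2 difference -0.30), GCLM (0.29) and TXNRD1 (0.22) had an unadjusted p under 0.05, as did 23.8% of all features. With 1 library against 2, the standard errors of these differences ran from 0.087 to 0.191 on the log2 scale over the 9 members. Between sets C and B at 100 µM edgeR called 0 of 9, beside 12.1% of features, with an unadjusted p under 0.05 for KEAP1, TXNRD1 and SRXN1, beside 26.9%. DESeq2 called KEAP1 and SRXN1 there, and limma-voom called 0. The shares of all features called by these tools are not given here, so these calls have no background beside them. The log2 differences (C minus B) by edgeR were -0.43 ± 0.147 for KEAP1 (adjusted p = 0.0623) and -0.24 ± 0.0879 for SRXN1 (0.075).

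The slope on dose rank passed for 6 of 9 members by edgeR, beside 55.3% of features (29.6% rising and 25.7% falling). Per dose step the log2 level changed by 0.20 for NQO1, 0.17 for TXNRD1, 0.14 for GCLM, 0.12 for GCLC, 0.09 for KEAP1 and -0.21 for HMOX1. The levels of TXNRD1, GCLC and GCLM were not in the order of dose: their 100 µM means (190, 100 and 29.5 CPM) were below the control means (235, 127 and 30.3 CPM). With the set term only NQO1 passed (0.22, adjusted p = 0.0381), beside 4.27% of features.

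The rest of the pathway was described by 8 lists of 58 genes, of which 53 were tested. GSTP1, GSTA1, ME1 and CBR3 had at most 9 counts in any library and were not tested. SOD2 matched more than 1 feature and was left out. At 1000 µM 33 of 53 were called, 20 higher and 13 lower, beside 57.6% of all features (28.5% higher and 29.1% lower), with a median log2 fold change of 0.14 against -0.01 over all features. The set term gave 32 calls, 18 higher and 14 lower, beside 38% of all features. At 100 µM 31 were called, 11 higher and 20 lower, beside 46.6% of all features (23.6% higher and 22.9% lower). With the set term 15 were called at 100 µM, of which 14 were lower, beside 17.3% of all features. At 10 µM 11 were called (5 higher, 6 lower), beside 14.8% of all features, and with the set term 0 by edgeR, beside 0.0279%. The lists below hold 3 to 11 tested genes each, and their counts are descriptions with no test of the list. Each count at 1000 µM stands beside the same shares of all features, 57.6% called without and 38% with the set term. At 0.01, 0.1 and 1 µM edgeR called 0, and 11, 5 and 9 of 53 had an unadjusted p under 0.05, beside 15%, 9.48% and 15.7% of all features. DESeq2 called 5, 0 and 3 of the 53 at these doses, beside 2.16%, 0.295% and 2.28% of all features, and limma-voom 0, 0 and 0.

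**Figure D3:**
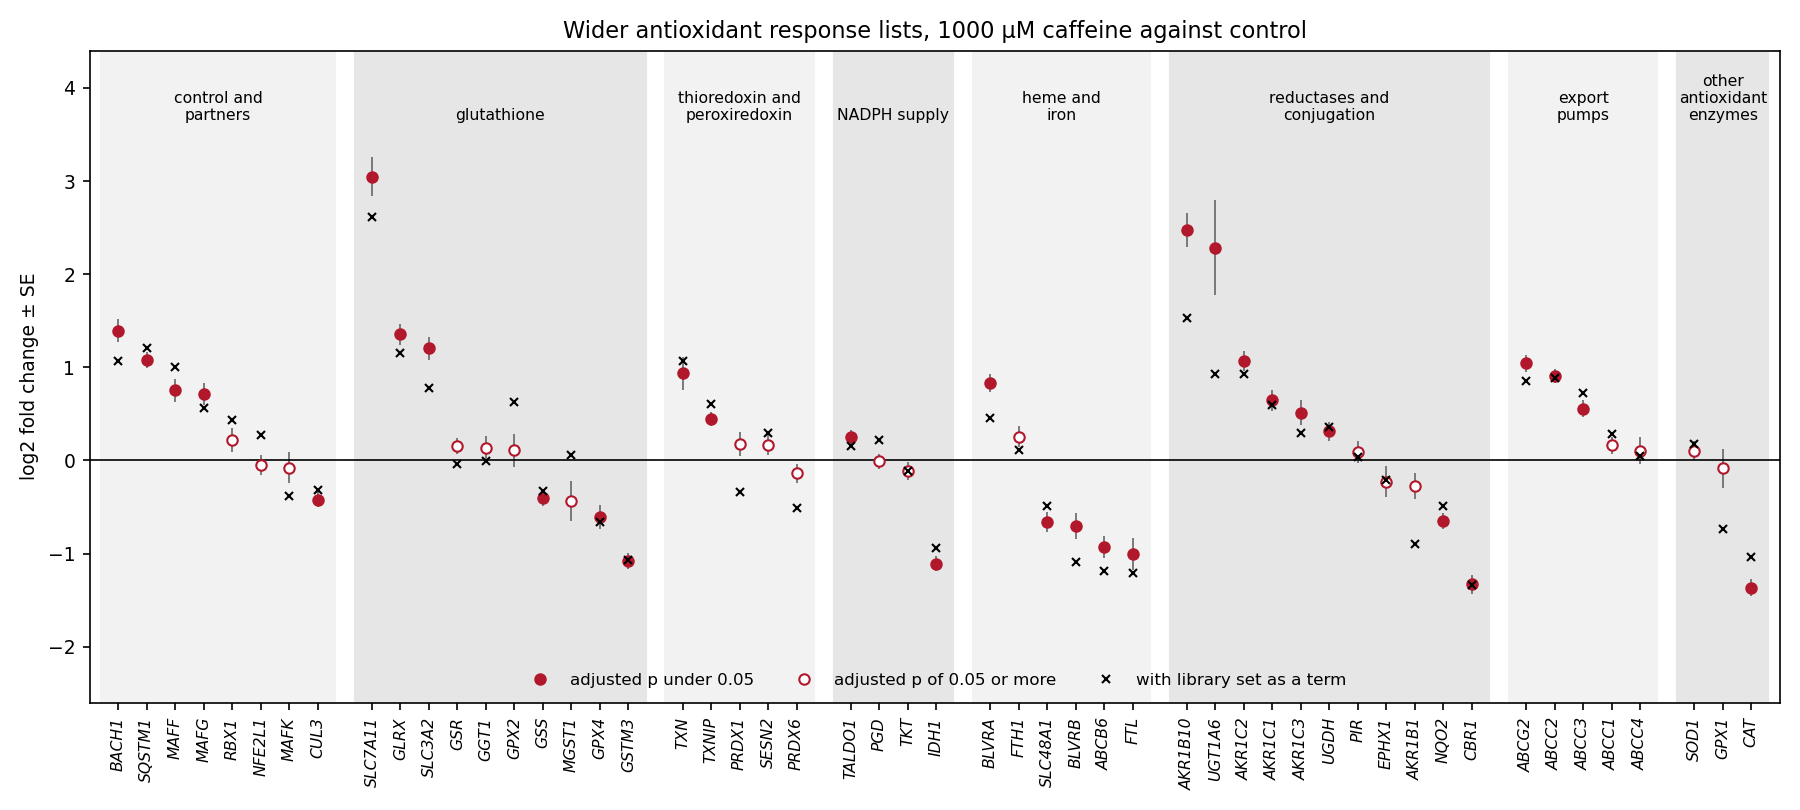
Log2 fold change ± SE at 1000 µM against control for 52 of the 53 tested genes of 8 antioxidant response lists, filled where the edgeR adjusted p was under 0.05, with crosses for the fit that includes the library set. SLC7A11 (3.05) and AKR1B10 (2.47) were the highest values and CAT (-1.37) and CBR1 (-1.33) the lowest.

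Genes of these lists also differed between library sets at a single dose. At 1 µM 8 of 53 were called between sets B and A by edgeR, beside 8.18% of features. DESeq2 called 14, and its share of all features is not given here. AKR1B10 (log2 difference, B minus A, 0.84, edgeR adjusted p = 0.00074), SLC7A11 (0.58, 0.0296) and CAT (-0.36) were among the 8, each in the direction of its change at 1000 µM. Between sets C and B at 1000 µM 18 of 53 were called, beside 22.9%, and at 100 µM 7 of 53, beside 12.1%. SLC7A11 was lower in set C at 1000 µM (-0.86, 0.000885) and AKR1B10 higher (0.38, 0.037).

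Among the regulators of NRF2 and its partners, 4 of 8 rose and 1 fell at 1000 µM, with the same counts under the set term. SQSTM1, the autophagy receptor that binds KEAP1, had 212, 222 and 179 CPM in control and 409, 410.1 and 476 CPM at 1000 µM (log2 fold change 1.08, edgeR adjusted p = 4.3e-09). BACH1, a repressor that competes at antioxidant response elements and at the HMOX1 gene, had 34.8, 33.5 and 41.0 CPM in control and 102, 104 and 80.8 CPM at 1000 µM (1.39, 1.55e-08). For both genes the 1000 µM libraries were above every control, and both changes were called with the set term (1.21 and 1.07). CUL3, the scaffold of the ligase that KEAP1 serves, fell by 0.42.

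Of 10 tested glutathione genes, 3 were called higher and 3 lower at 1000 µM, and with the set term 4 higher and 2 lower. SLC7A11, the cystine importer that supplies cysteine for glutathione, had 42.0, 33.5 and 45.1 CPM in control, 42.6, 53.1 and 44.1 CPM at 100 µM and 382, 400.3 and 216 CPM at 1000 µM. The 1000 µM libraries were all far above the others, and the library of set C was the lowest of them. The log2 fold change was 3.05 ± 0.214 (edgeR adjusted p = 1.34e-09), and 2.62 with the set term. GLRX, glutaredoxin, rose by 1.35, whereas GSTM3, a glutathione transferase, fell by 1.08. GSS, which makes the second step of glutathione synthesis, fell by 0.41, and its change of -0.33 with the set term missed the threshold (0.0617).

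In the thioredoxin and peroxiredoxin list 2 of 5 were called higher at 1000 µM and 0 lower, and with the set term 2 higher and 1 lower. The gene called lower with the set term was PRDX6, a peroxiredoxin (log2 fold change -0.52, edgeR adjusted p = 0.0093, against -0.14 without the term, 0.248). TXN, thioredoxin itself, had 134, 135 and 199 CPM in control and 306, 334 and 254 CPM at 1000 µM (log2 fold change 0.93, edgeR adjusted p = 0.000191), with no overlap. TXNIP, an inhibitor of thioredoxin, rose by 0.45 at 1000 µM and fell by 0.68 at 100 µM, with both calls present under the set term (0.60 and -0.48). Of 5 genes that supply NADPH, 1 was called higher and 2 lower at 1000 µM, and with the set term 0 higher and 1 lower. IDH1 fell by 1.11, from 947, 992 and 1143 CPM to 491, 501 and 439 CPM. TALDO1, of the pentose phosphate pathway, rose by 0.25 and missed the threshold with the set term (0.15, edgeR adjusted p = 0.397) and when only the 2 groups were fitted.

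Of 6 heme and iron genes, 4 were called lower and 1 higher at 1000 µM, with the same counts under the set term. BLVRA, which reduces the biliverdin that HMOX1 makes, had 36.2, 43.3 and 41.9 CPM in control and 69.8, 71.0 and 75.7 CPM at 1000 µM (log2 fold change 0.84, edgeR adjusted p = 5.7e-07, or 0.46 with the set term, 0.0156). ABCB6, a porphyrin transporter, fell by 0.93 and SLC48A1, a heme transporter, fell by 0.66. CAT, catalase, a heme enzyme in the list of other antioxidant enzymes, fell from 195, 208 and 225 CPM to 77.7, 83.2 and 82.4 CPM (-1.37, 1.78e-10, and -1.04 with the set term).

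Of 11 tested reductases and conjugating enzymes, 6 were called higher and 2 lower at 1000 µM, and with the set term 4 higher and 3 lower. AKR1B10, an aldo-keto reductase, had 53.4, 48.6 and 56.2 CPM in control, 95.2, 83.6 and 95.6 CPM at 100 µM and 252, 279 and 346 CPM at 1000 µM. Its log2 fold change of 2.47 at 1000 µM was 1.52 with the set term (edgeR adjusted p = 1.22e-06). AKR1C2 rose by 1.07 at 1000 µM and fell by 0.91 at 100 µM, both called with the set term, but reads may be shared among the near-identical AKR1C genes. CBR1, a carbonyl reductase, fell by 1.33, from 28.7, 30.8 and 27.2 CPM to 10.1, 11.2 and 13.3 CPM. NQO2, the paralog of NQO1, fell by 0.65.

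The export pumps had 3 of 5 genes called higher and 0 lower at 1000 µM, with the same counts under the set term. ABCC2, which carries glutathione conjugates into bile, had 1258, 1150 and 1281 CPM in control, 905, 901 and 931 CPM at 100 µM and 2438, 2343 and 2134 CPM at 1000 µM. The 100 µM libraries were below and the 1000 µM libraries above every control, with log2 fold changes of -0.43 and 0.91 (edgeR adjusted p = 0.000124 and 6.28e-09), both called with the set term. ABCG2, another efflux pump, rose by 1.04 at 1000 µM, while its log2 fold change at 100 µM was -0.00 (0.986).

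**Figure D4:**
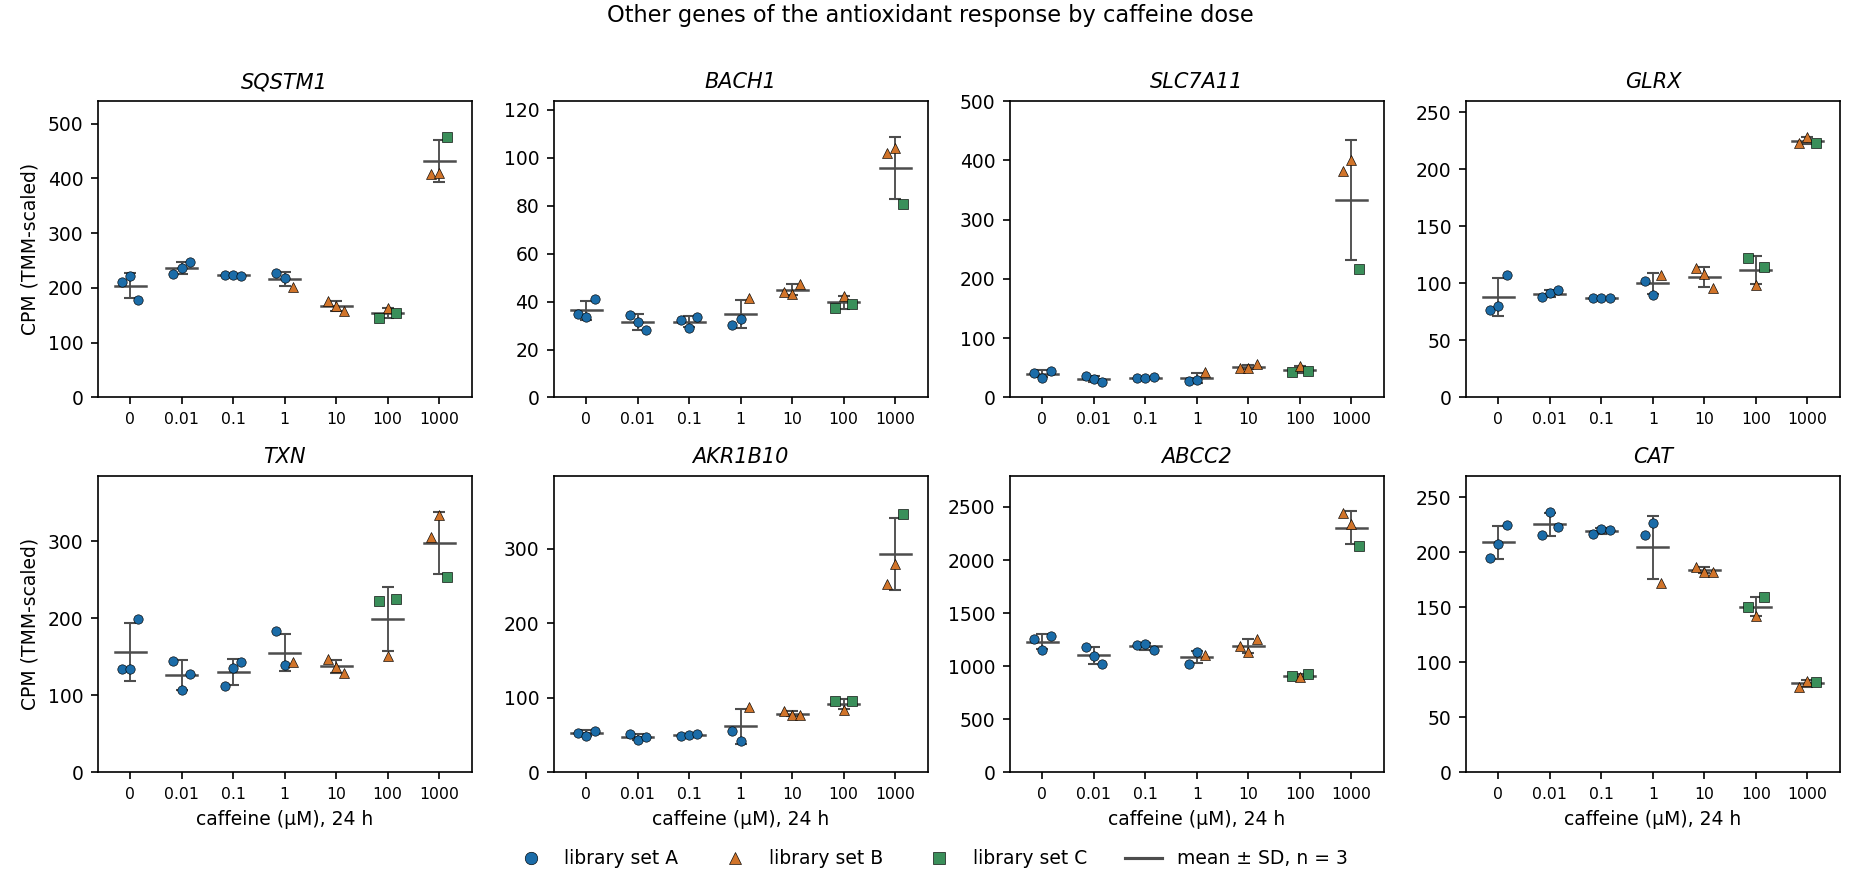
Level (TMM-scaled CPM, linear axis from 0) of 8 other genes of the antioxidant response in the 21 libraries by caffeine dose in µM, with points marked by library set and lines for the mean ± SD of 3 cultures. SLC7A11, SQSTM1, BACH1, GLRX, TXN, AKR1B10 and ABCC2 had their highest libraries at 1000 µM, where CAT had its lowest.

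The features closest to a member in profile were found for the 3 members with the largest change at 1000 µM. Likeness was the root mean square difference of log2 group means relative to control over the 7 groups, among 10885 named features whose mean over all libraries reached 5 CPM. NQO1 was most like ETV5 (0.0338), SETD6 (0.058) and PLSCR1 (0.077). TXNRD1 was most like DCBLD2 (0.0959), ABCB1 (0.101) and CPT1A (0.127). HMOX1 was most like SIX5 (0.0655), PDZD7 (0.0739) and CHPF (0.0759). None of these 9 genes was in the lists above. The measure describes these 7 group means and carries no test.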

How the data were processed

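The values are whole read counts for each feature in 21 libraries, unnormalized as deposited. HISAT2, DESeq2 and GRCh38 are named in the submitters' processing notes, without their roles or versions. The counting tool, annotation release and use of strand are not given in the sources used here. Another 21 per-sample columns went unused. Symbols were matched by Ensembl identifier for 32482 features, and positions, exon lengths and overlapping genes were read from GENCODE 29, whose release the authors need not have used.

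Features were filtered with filterByExpr by group in edgeR 4.0.16 (R 4.3.3), which kept 17951, scaled by TMM and tested with the quasi-likelihood F-test (robust) in a single model of the 21 libraries with 7 group means. The 2-sided p-values were Benjamini-Hochberg adjusted over all tested features, with a threshold of 0.05. Each p-value weighs a difference against the spread between these cultures, estimated over all 21 libraries. Each SE is the size of the log2 fold change divided by the root of its F statistic. Library sets were found by clustering the mitochondrial mRNAs (3 clusters, mean silhouette 0.571). Replicates of a group differed by more than read-counting noise in all 21 pairs (chi-square per degree of freedom at least 3.59), so each library counts as 1 replicate. The fit was also run on simulated counts without library sets, and the outcome is not given here.

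The members, the pathway lists and the library sets were chosen with earlier results of these data known. Named from each list were up to 2 rises and 2 falls with the smallest p among genes called at 1000 µM against control. For TMM-scaled CPM the prior count of log2 values was 2. Alternatives were DESeq2 1.42.0, its size factors in edgeR, limma-voom (limma 3.58.1), no filter, a floor of 5 CPM on the mean, only the 2 groups compared, linear dose for the slope, the replicate number as a block, the library set as a term and each library left out in turn. A tested gene of the lists is counted in their totals but not reported here.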

Additional observations from a re-analysis of the deposited data

How the results depend on the processing

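Direction was compared for 161 values: the members at every comparison, and genes named from the lists at 1000 µM against control. No called value among them changed direction under the alternatives compared. The slope on linear dose, in another unit, was left out, as were values of the list genes at other comparisons. The call at 1000 µM against control held for all 6 members under every alternative run. Counts of members against control at 10 µM moved from 4 to 2 with no filter, 2 with the replicate block, 1 with only the 2 groups and 0 with the library set. The set term also moved the members at 100 µM from 8 to 3, the slope on dose rank from 6 to 1, and the pathway lists (10 µM, 11 to 0; 100 µM, 31 to 15; 0.01 µM, 0 to 4). For the lists, no filter gave 7 at 10 µM, and DESeq2 gave 5 at 0.01 µM and 3 at 1 µM against 0. A mean of at least 5 CPM gave 1 member in place of 0 for set B against A at 1 µM. The cause of these moves was not tested. With each library left out, 1 to 4 members were called at 10 µM, between 7 and 8 for 100 µM, 6 for 1000 µM, 8 to 9 for 1000 against 100 µM, 5 to 8 for the slope, 8 to 9 for 1000 against 10 µM in set B, 0 to 2 for set B against A and 0 to 1 for the difference between sets B and C. For the lists the range was 0 to 1 at 1 µM, between 5 and 12 for 10 µM, between 26 and 34 for 100 µM and between 32 and 40 for 1000 µM. Replicate numbers did not pair the samples: the mean correlation of same-numbered libraries ran from -0.108 to 0.152 over 21 pairs of groups and exceeded 0.1 in 1. The replicate block ended 4 calls among 161 values of single genes (NQO1 and SRXN1 at 10 µM, KEAP1 at 1000 against 100 µM, TXNRD1 between sets at 1000 µM) and added 1 (OSGIN1 between sets at 1000 µM). With 3 cultures per group and no link between control and the sets above 1 µM, small changes at 10 µM cannot be told apart from set differences.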

Other observations

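Genes of the aryl hydrocarbon receptor and of ATF4, whose targets overlap with those of NRF2, moved as well at 1000 µM. Of 7 listed genes of the aryl hydrocarbon receptor, 4 were tested, and by edgeR's quasi-likelihood test 3 were higher and 1 lower, beside 57.6% of all features called. CYP1A1, the cytochrome P450 that marks receptor activity, had 2.57, 3.12 and 2.95 CPM in control, 5.73, 5.95 and 6.18 CPM at 100 µM and 78.6, 78.3 and 80.8 CPM at 1000 µM. These 3 groups did not overlap. Its log2 fold change at 1000 µM was 4.78 ± 0.127 (edgeR adjusted p = 4.14e-15), and AHR itself rose by 1.42. With the set term 2 of the 4 were called, both higher, beside 38% of all features called. All 6 genes of the ATF4 list were called higher at 1000 µM, beside 28.5% of all features called higher. With the set term 5 were called, beside 38% of all features. Among the 6 were ASNS, asparagine synthetase (2.25), and TRIB3, a pseudokinase (1.61). SLC7A11, described above with the glutathione genes, is also a known ATF4 target.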
